A study of Arabidopsis thaliana with 26 samples.

Results

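The response of an Arabidopsis msh1 memory line to 5-azacytidine was measured by RNA sequencing. The comparison was made between the 2 biological replicates (5 libraries) of the treated memory line and the 2 biological replicates (6 libraries) of the untreated memory line, chosen by their labels. These are 4 of the 10 biological replicates, and 11 of the 26 libraries, of the whole series. The treated plants had grown on agar medium with 100 µM 5-azacytidine and the untreated plants on the same medium with 0 µM. All were whole plants with root, 10 days old, of the accession Col-0. The line comes from ancestors with suppressed MSH1, a nuclear gene whose protein maintains the genomes of mitochondria and plastids, and the untreated memory line carries that history too. Wild-type Col-0 plants with 100 µM (3 replicates) and 0 µM 5-azacytidine (3 replicates) gave the levels set beside those of the memory line. Their counts also entered the same fit, so the spread behind each p-value was estimated over all 10 replicates, wild type included. The labels do not say whether replicates were grown separately, and the p-values cover no more than the spread among these replicates, which may be technical.

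5-Azacytidine is a cytidine analogue that is built into nucleic acids and traps DNA methyltransferases, so that cytosine methylation is lost as cells divide. In Arabidopsis, MET1 copies CG methylation after replication, and other methyltransferases and small RNAs act at CHG and CHH sites. Methylation keeps transposons and some genes silent, many of them in the heterochromatin around the centromeres.

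Treated memory-line replicates held 12522071 and 12518386 gene counts, and untreated memory-line replicates held 12854035 and 11412839. In untreated memory-line replicate 2, 25.7% of the aligned reads mapped to several places, a share of 6.49% to 13.6% elsewhere. The median absolute log2 difference between replicates over all tested genes was 0.229 in the treated and 0.262 in the untreated memory line. Transcript levels of MSH1 were 13.2 and 14.7 CPM (counts scaled to a library of 1000000) in the treated memory line, against 13.3 and 10.6 CPM in the untreated memory line. MSH1 did not pass the test (log2 fold change 0.21 ± 0.27 SE, edgeR adjusted p = 0.895). Shoot markers, 11 photosynthesis genes, summed to 22100 CPM in the lower and 46100 CPM in the higher of the treated memory-line replicates. In the untreated memory line the lower and higher sums were 25710 and 50880 CPM, so the markers differed more within the groups than between them. Root markers summed to 229 to 247 CPM over 19 genes in the treated memory line and 229 to 284 CPM in the untreated memory line. No marker of either list passed the edgeR test, and DESeq2 called 1 root marker. At an unadjusted p under 0.05 there were 7 of 19 root and 0 of 11 shoot markers, against 1979 of 22031 tested genes. Of the root markers, 13 had a lower and 6 a higher fitted level with the drug. The median log2 fold changes were -0.31 (shoot) and -0.51 (root), and the part of these in the results was not tested.

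Of 22031 genes tested, 163 changed on azacytidine in the memory line (0.74% of all tested), at an adjusted p under 0.05 in edgeR's quasi-likelihood test. Of these, 105 rose (0.477%) and 58 fell (0.263%). The risen genes had low levels and large changes, and 103 of the 105 rose by at least 2-fold. The fallen genes were more abundant, with a median of 37.3 CPM in the group where they were higher against 5.13 CPM for the risen genes, and 49 of the 58 fell by at least 2-fold. The median log2 fold change over all tested genes was 0.012. At an unadjusted p under 0.05 there were 1979 genes. With 2 replicates against 2, the groups did not overlap in 19.9% of all tested genes in the higher and 16.1% in the lower direction, so that a lack of overlap alone sets no gene apart. Single replicates moved these counts. Without untreated replicate 2, 62 genes rose, and without treated replicate 1, 64 genes rose. Without untreated replicate 1, 167 genes fell, and without treated replicate 1 or 2, 27 and 22 genes fell. Of the risen genes, 51 passed whichever of the 4 memory-line replicates was left out, and of the fallen genes 11 did.

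**Figure D1:**
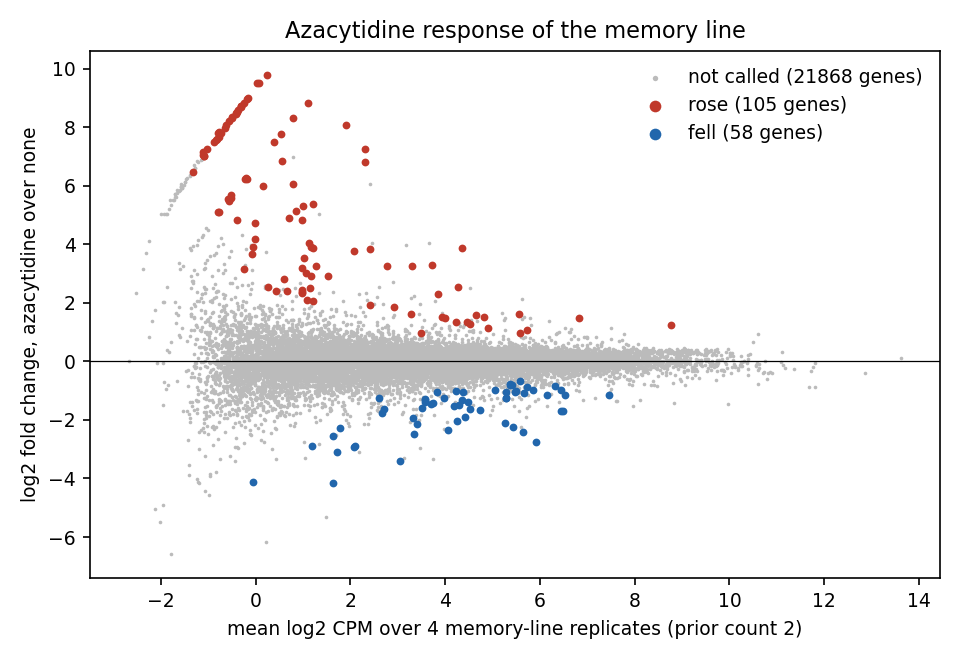
Azacytidine response of the memory line. Each point is 1 of 22031 genes, with its mean log2 CPM over the 4 memory-line replicates (x) and its log2 fold change, azacytidine over none (y). The 105 risen genes (red) reach low levels and large changes, and the 58 fallen genes (blue) lie at higher levels. The values along the upper left line belong to genes with 0 untreated counts and depend on the prior count of the fit.

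Most of the risen genes were near silence without the drug. Over both untreated memory-line replicates, 31 of the 105 had 0 counts, 17 had 1 to 3 counts and 28 had 4 to 20 counts, together 76 genes. In the treated memory line these 76 genes had 22 to 1444 counts over both replicates, with a median level of 3.78 CPM. For the 31 genes at 0 the rise was at least 7.11-fold to at least 71.7-fold, taken against a floor of 3 counts over the untreated group. Such genes passed the filter on low counts only through treated samples. Among all tested genes, 77 had 0 counts in both untreated and 5 had 0 counts in both treated memory-line replicates. Of these, 36 had 0 counts in both untreated and 10 or more in each treated replicate, and 30 of the 36 were called. There were 0 genes with 0 counts in both treated and 10 or more in each untreated replicate.

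The strongest of these genes have little annotation. The genes without symbol in this paragraph were chosen after their values were seen. AT3G01345, which encodes an uncharacterized protein, had 55.6 and 57.6 CPM in the treated memory line, against 0.574 and 0.094 CPM in the untreated memory line (log2 fold change 7.25 ± 0.38 SE, edgeR adjusted p = 1.4e-06). AT2G03965, another uncharacterized protein gene, had 54.0 and 38.9 CPM in the treated memory line, against 0.215 and 0.094 CPM in the untreated memory line. The noncoding RNA gene AT2G05914 had 59.3 and 33.0 CPM in the treated memory line, against 0.430 and 0.376 CPM in the untreated memory line. In all 3 genes both treated replicates lay far above both untreated ones, and the call held whichever memory-line replicate was left out. AT2G03965 overlaps the noncoding AT2G04655 on the other strand, and AT2G05914 overlaps AT2G05915. All 4 were called as risen, but the library kit does not mark strand, so the reads of such partners cannot be told apart.

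By their product names in the reference, the 76 genes held 26 uncharacterized proteins (34.2%, against 6.53% of all tested genes) and 13 noncoding RNA genes (17.1%, against 6.04%). They also held 5 of the 8 tested genes named beta-galactosidase related protein, 2 of 3 named MADS-box family protein and 2 of 5 named Ulp1 protease family protein. These shares are descriptions of genes that passed the filter mostly through treated samples. Ulp1 proteases process SUMO, a small protein tag, and in plants such genes are often carried by DNA transposons. AT5G28810, of the Ulp1 family, had 65 and 121 counts in the treated memory line, against 0 and 0 in the untreated memory line, at least 60.1-fold higher. AT1G59930, of the MADS-box family, had 116 and 59 counts in the treated memory line, against 0 and 0 in the untreated memory line, at least 56.5-fold higher. AT3G44265, a beta-galactosidase-like gene, had 94 and 128 counts in the treated memory line, against 0 and 0 in the untreated memory line, at least 71.7-fold higher. These 3 genes, also chosen after their values were seen, had no read in the untreated replicates. They passed in all alternatives that tested them, not counting the fits without a wild-type replicate.

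Many of the near-silent genes lay in gene-poor regions. On each chromosome the centre of the 1-Mb window with the fewest coding genes was located in the reference. Of the 76 genes, 44 lay within 3 Mb of it (57.9%), with a median distance of 2.64 Mb. The 29 risen genes with over 20 untreated counts had 5 within 3 Mb (17.2%), the 58 fallen genes 7 (12.1%), and all placed tested genes 8.64%, with a median distance of 8.30 Mb. Genes of the 76 were short, with a median of 977.5 exon bases against 1708 over all tested genes. Their transcribed regions held a median of 3.03 CG dinucleotides per 100 bases and 41.6% G and C, against 2.45 and 38.8% over all tested genes, and the interquartile ranges of both measures overlapped. In the 250 bases before the gene the medians were 1.61 CG per 100 bases for the 76 genes and 2.01 for all tested genes. The 76 genes passed the filter mostly through treated samples, while genes that stayed silent in all samples are absent from the tested genes. The shares of the 76 and of all tested genes are therefore not like for like. These are descriptions over genes, which are not replicates.

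**Figure D2:**
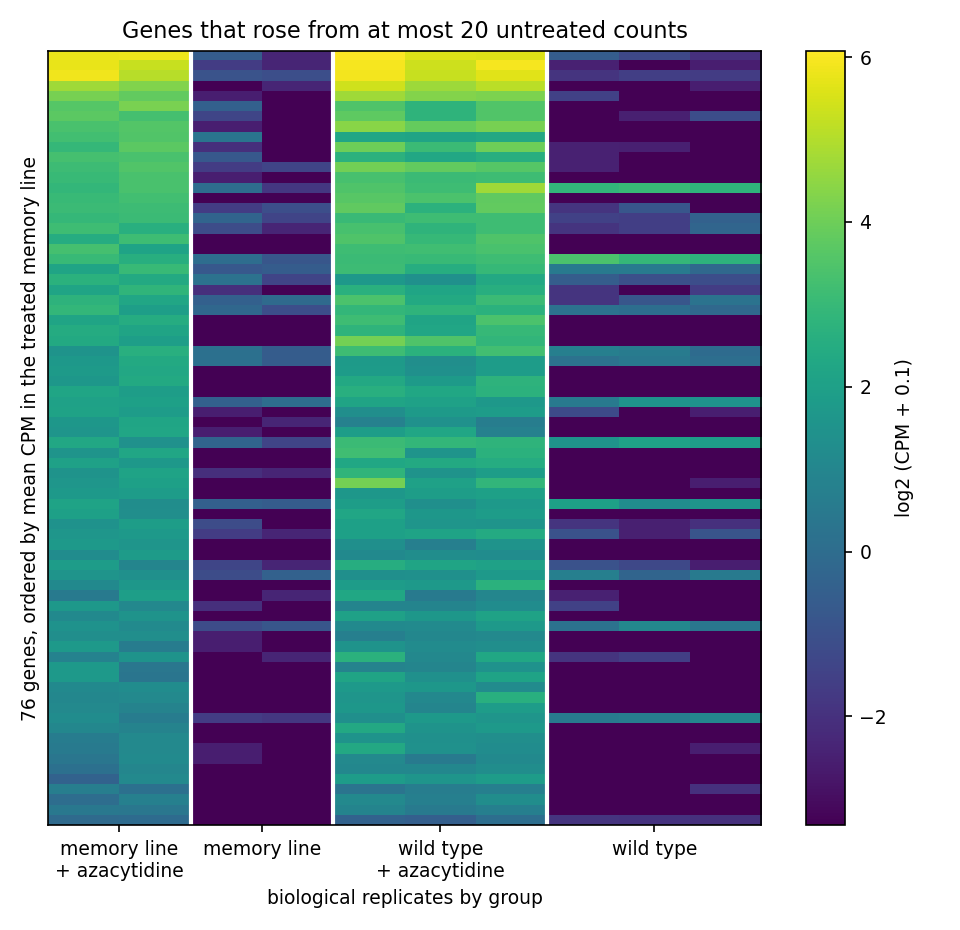
Levels of the 76 risen genes with at most 20 untreated counts. Rows are genes ordered by mean CPM in the treated memory line, columns are biological replicates, and colour is log2 (CPM + 0.1). The treated memory line is lit throughout beside a dark untreated memory line. The treated and untreated wild type, which share no sample with them but entered the same filter on low counts, show a similar split.

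Of 11 tested members of a list of methylation-silenced and imprinted loci, 3 rose and none fell, against 0.477% of all tested genes that rose. The median log2 fold change of these 11 was 2.98. The list held 17 genes with count data, and PHE1, HDG3, HDG9, AGL36, AGL96 and SUP did not pass the filter. They had 0 to 3 counts in each memory-line replicate, so members that stayed silent are missing from this share and median. SDC, an F-box gene kept silent through tandem repeats in its promoter, had 7.57 and 8.46 CPM in the treated memory line, against 0.717 and 0.282 CPM in the untreated memory line. It rose by 3.92 ± 0.42 SE on the log2 scale (edgeR adjusted p = 0.00057) and passed whichever memory-line replicate was left out, and 80.2% of its exon bases overlap a gene on the other strand. QQS, a small Arabidopsis-specific gene with effects on starch content, had 32.0 and 31.4 CPM in the treated memory line, against 1.51 and 5.45 CPM in the untreated memory line. Its log2 fold change was 3.24 ± 0.52 SE (edgeR adjusted p = 0.025), and the adjusted p was 0.122 and 0.101 without treated replicate 1 or 2. MRU1 had 23.2 and 10.6 CPM in the treated memory line, against 1.86 and 0.470 CPM in the untreated memory line (log2 fold change 3.76 ± 0.49 SE, edgeR adjusted p = 0.004). FWA, a homeobox gene that methylation silences outside the seed, had 25 and 40 counts in the treated memory line, against 0 and 4 counts in the untreated memory line. FWA did not pass the test (edgeR adjusted p = 0.434). The uncalled BNS, PAI2 and FLC had log2 fold changes of 0.29, -0.05 and -0.01.

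The upstream repeats of SDC and QQS are shown because methylated repeats are the feature these genes are known for. A search of the 1000 bases before each gene in the RefSeq reference TAIR10.1 found the longest exact direct repeat, printed in capitals on the plus strand with the bases between its copies. In SDC it spans 38 bases, with copies starting 220 and 156 bases before the gene (chr2:7681942-7682043). In QQS it spans 22 bases, with copies starting 451 and 401 bases before the gene (chr3:12348596-12348667).
SDC: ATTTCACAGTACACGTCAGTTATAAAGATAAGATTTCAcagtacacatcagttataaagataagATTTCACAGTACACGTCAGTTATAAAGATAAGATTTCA
QQS: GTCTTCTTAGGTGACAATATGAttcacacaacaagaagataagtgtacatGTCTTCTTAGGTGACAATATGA
The bases between the SDC copies resemble the repeat itself. Searched in the same way, the longest repeat spanned 26 bases before AT2G03965, 15 before MRU1, 14 before IRT1 and 9 before AT3G01345.

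Transcripts of the silencing machinery itself did not pass the test. Of 39 tested genes for DNA methylation and silencing, 0 were called by edgeR and 0 by DESeq2, and their median log2 fold change was 0.02. At an unadjusted p under 0.05 there were 3 of the 39, against 1979 of 22031 tested genes. MET1 had 49.0 and 64.6 CPM in the treated memory line, against 52.6 and 45.2 CPM in the untreated memory line (log2 fold change 0.21 ± 0.16 SE, edgeR adjusted p = 0.762). The demethylase gene DME and the Argonaute gene AGO4, among the most abundant of the list, had log2 fold changes of -0.28 and -0.04. The 39 values ran from -1.13 to 0.85.

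A second group of risen genes was already expressed without the drug. It held 29 genes with over 20 untreated counts and a median of 31.7 CPM in the treated memory line, of which 17 carry a symbol. Genes of metal uptake and handling were among the largest changes. Plants take up iron at the root surface by reducing it and importing the ferrous ion, chelate it with nicotianamine for transport, and store surplus metals in the vacuole. In whole plants, fewer cells of a type and less RNA per cell cannot be told apart.

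IRT1, the main root transporter for ferrous iron, had 88.8 and 66.8 CPM in the treated memory line, against 5.24 and 5.26 CPM in the untreated memory line. Its log2 fold change was 3.89 ± 0.55 SE (edgeR adjusted p = 0.023). The replicates of the 2 groups lay far apart, yet IRT1 missed the threshold whichever memory-line replicate was left out, with adjusted p of 0.126, 0.082, 0.129 and 0.253, while its log2 fold change stayed between 3.67 and 4.06. ABCG37, an exporter of root phenolics, had 65.4 and 67.8 CPM in the treated memory line, against 38.1 and 30.7 CPM in the untreated memory line (log2 fold change 0.95 ± 0.16 SE, edgeR adjusted p = 0.012). It missed the threshold without either treated replicate (adjusted p = 0.0633 and 0.089) and without untreated replicate 2 (adjusted p = 0.119). These were the 2 called members of 24 tested in the list of iron uptake and its regulators, against 0.477% of all tested genes that rose. The list's median log2 fold change was 0.20, and DESeq2 called 5 members. At an unadjusted p under 0.05 there were 10 of the 24, against 1979 of 22031 tested genes. The iron reductase gene FRO2, named after its values were seen, had 43.0 and 28.6 CPM in the treated memory line, against 2.65 and 1.78 CPM in the untreated memory line (log2 fold change 3.98 ± 0.73 SE, edgeR adjusted p = 0.085). FRO2 did not pass the test. The proton pump gene AHA2 and the genes BTS and OPT3, the most abundant uncalled members, had log2 fold changes of 0.58, -0.99 and -0.45.

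Of 21 tested genes for nicotianamine synthesis and vacuolar metal transport, 4 rose and none fell, against 0.477% of all tested genes that rose. The list median was 0.21, and DESeq2 called 5 members. At an unadjusted p under 0.05 there were 8 of the 21, against 1979 of 22031 tested genes. NAS2, a nicotianamine synthase, had 44.5 and 36.8 CPM in the treated memory line, against 3.51 and 4.79 CPM in the untreated memory line (log2 fold change 3.304 ± 0.28 SE, edgeR adjusted p = 9.1e-05). The related synthase NAS1 had 42.2 and 30.0 CPM in the treated memory line, against 15.1 and 14.3 CPM in the untreated memory line (log2 fold change 1.29 ± 0.22 SE, edgeR adjusted p = 0.011). MTPA2, which moves zinc into the vacuole, had 17.9 and 16.1 CPM in the treated memory line, against 4.16 and 6.95 CPM in the untreated memory line (log2 fold change 1.62 ± 0.24 SE, edgeR adjusted p = 0.004). HMA3, a vacuolar pump for zinc and cadmium, had 4.25 and 2.33 CPM in the treated memory line, against 0.645 and 0.564 CPM in the untreated memory line (log2 fold change 2.41 ± 0.48 SE, edgeR adjusted p = 0.032). With 9 and 6 untreated counts, HMA3 belongs to the 76 near-silent genes and not to the second group. In untreated wild type it had 48, 29 and 38 counts. NAS2 and MTPA2 passed whichever memory-line replicate was left out. NAS1 missed the threshold without treated replicate 1 or untreated replicate 2 (adjusted p = 0.126 and 0.094), and HMA3 passed only without treated replicate 2. edgeR and DESeq2 called none of 11 tested genes for iron storage and superoxide dismutases (median 0.16, 0 at an unadjusted p under 0.05) and none of 15 for zinc and copper transport (median -0.15, 3 at an unadjusted p under 0.05). The root markers given above had a median log2 fold change of -0.51, and the part of root share in these results was not tested.

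**Figure D3:**
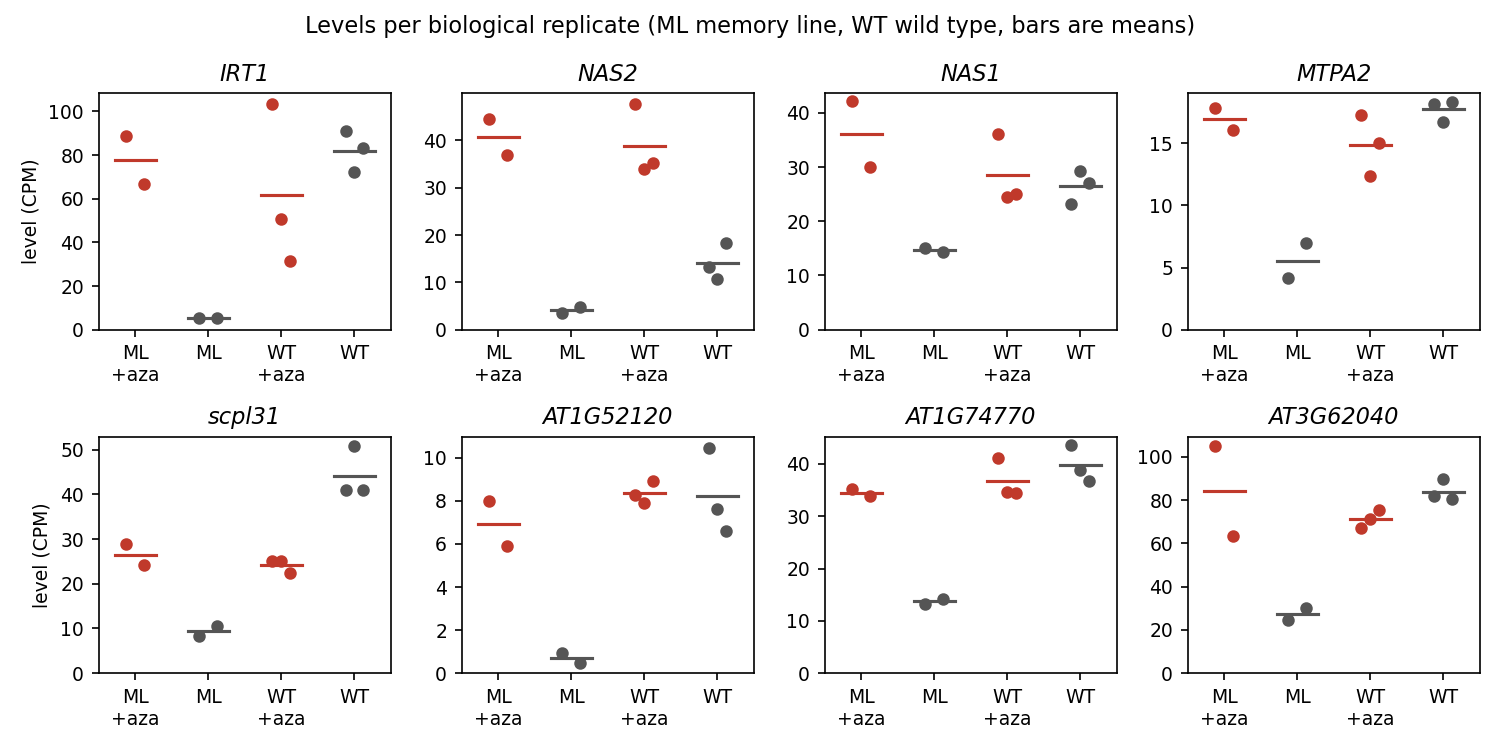
Levels of 8 genes in every biological replicate, in CPM on linear axes from 0, with bars at the group means. The upper row holds metal genes and the lower row the genes whose azacytidine response differed between memory line and wild type. In each panel the untreated memory line is the lowest group.

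Other expressed genes rose as well. GLN1;2, a cytosolic glutamine synthetase that assimilates ammonium, was the most abundant, with 733 and 615 CPM in the treated memory line, against 312 and 260 CPM in the untreated memory line (log2 fold change 1.24 ± 0.20 SE, edgeR adjusted p = 0.0082). It was the only called member of 23 tested genes of nitrogen assimilation, against 0.477% of all tested genes that rose. GLN1;2 missed the threshold without treated replicate 1 (adjusted p = 0.0599) or untreated replicate 2 (adjusted p = 0.0831). WR3, annotated as a nitrate transmembrane transporter and known as a partner of high-affinity nitrate transporters, had 28.9 and 30.0 CPM in the treated memory line, against 12.7 and 10.6 CPM in the untreated memory line (log2 fold change 1.33 ± 0.19 SE, edgeR adjusted p = 0.0029). PP2-A8, a lectin-like protein gene of the phloem protein family, had 38.5 and 27.2 CPM in the treated memory line, against 8.18 and 4.89 CPM in the untreated memory line. Its neighbour PP2-A6 had 13.6 and 14.4 CPM in the treated memory line, against 3.87 and 3.85 CPM in the untreated memory line. They were the 2 called members of 14 tested phloem lectins, against 0.477% of all tested genes that rose. Both passed whichever memory-line replicate was left out, with log2 fold changes of 2.31 ± 0.27 and 1.86 ± 0.26 (SE).

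SQN, a cyclophilin that assists the small RNA effector AGO1, had 38.6 and 58.4 CPM in the treated memory line, against 20.15 and 13.5 CPM in the untreated memory line (log2 fold change 1.52 ± 0.25 SE, edgeR adjusted p = 0.011). GLP5, a germin-like protein gene of the cell wall, had 233 and 152 CPM in the treated memory line, against 71.5 and 65.6 CPM in the untreated memory line (log2 fold change 1.49 ± 0.26 SE, edgeR adjusted p = 0.017). GLYI4, of the glyoxalase family, had 57.8 and 30.6 CPM in the treated memory line, against 15.6 and 13.9 CPM in the untreated memory line (log2 fold change 1.58 ± 0.30 SE, edgeR adjusted p = 0.044). SQN missed the threshold without treated replicate 2 or untreated replicate 2 (adjusted p = 0.0945 and 0.0851). GLP5 and GLYI4 passed only without treated replicate 2, and their adjusted p was 0.0582 to 0.152 and 0.118 to 0.331 without each of the others.

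Among the fallen genes, those of jasmonate were the most numerous in the lists. Jasmonate is a fatty acid hormone of wounding and defence. Its active form, the conjugate with isoleucine, joins the receptor COI1 to JAZ repressors, which are then degraded and free the transcription factor MYC2. JAZ genes, synthesis genes and catabolism genes are themselves targets of the hormone. Of 65 tested genes in 5 jasmonate lists, 14 fell and none rose, against 0.263% of all tested genes that fell.

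Of 12 tested JAZ genes 5 fell, with a list median of -1.25. JAZ9 had 22.0 and 25.9 CPM in the treated memory line, against 115 and 206 CPM in the untreated memory line (log2 fold change -2.74 ± 0.31 SE, edgeR adjusted p = 0.0021). JAZ7 had 1.87 and 3.14 CPM in the treated memory line, against 21.4 and 32.6 CPM in the untreated memory line (log2 fold change -3.41 ± 0.44 SE, edgeR adjusted p = 0.0046). JAZ6 had 56.7 and 43.5 CPM in the treated memory line, against 139 and 186 CPM in the untreated memory line. JAZ2 and JAZ5 fell by 1.06 ± 0.17 and 1.62 ± 0.32 (SE) on the log2 scale. JAZ12, JAZ1 and JAZ3, the most abundant uncalled members, had log2 fold changes of -0.42, -1.03 and -0.78. JAZ9 and JAZ6 passed whichever replicate was left out. JAZ7 missed the threshold without treated replicate 1 (adjusted p = 0.0674), JAZ2 without either treated replicate (adjusted p = 0.0518 and 0.0584), and JAZ5 without any replicate but treated replicate 1 (adjusted p = 0.0525 to 0.221).

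Of 16 tested genes of jasmonate synthesis 3 fell, and the median was -0.99. LOX3 encodes a lipoxygenase of the entry step, AOC1 the allene oxide cyclase and OPR3 the peroxisomal reductase that follows. OPR3 had 52.2 and 46.3 CPM in the treated memory line, against 120 and 199 CPM in the untreated memory line (log2 fold change -1.69 ± 0.26 SE, edgeR adjusted p = 0.011). AOC1 had 25.8 and 15.9 CPM in the treated memory line, against 63.5 and 133 CPM in the untreated memory line (log2 fold change -2.23 ± 0.38 SE, edgeR adjusted p = 0.034). LOX3 had 12.6 and 6.86 CPM in the treated memory line, against 30.0 and 49.8 CPM in the untreated memory line (log2 fold change -2.04 ± 0.38 SE, edgeR adjusted p = 0.043). The abundant LOX2, AOC2 and AOS were uncalled, with log2 fold changes of -1.32, -0.96 and -1.03 and wide spread between treated replicates. Without treated replicate 2 no member of the list was called. Without treated replicate 1 none of these 3 was called but AOC2 was, with a log2 fold change of -1.90, and without untreated replicate 2 only OPR3 was.

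MYC2 had 35.5 and 26.9 CPM in the treated memory line, against 62.5 and 65.5 CPM in the untreated memory line (log2 fold change -1.04 ± 0.20 SE, edgeR adjusted p = 0.033). It missed the threshold without each replicate in turn (adjusted p = 0.0536 to 0.228). A gene on the other strand, AT1G32630, covers 98.5% of its exon bases and fell too, so the reads of this pair cannot be told apart. MYC2 was the only called member of 12 tested receptor and transcription factor genes, and TPL, NINJA and MYC3 had log2 fold changes of 0.26, -0.01 and -0.14. Of 6 tested catabolism genes 2 fell. ILL6, which cleaves jasmonate conjugates, had 6.72 and 8.17 CPM in the treated memory line, against 27.2 and 48.6 CPM in the untreated memory line. CYP94C1, which oxidises the active hormone, had 14.9 and 11.4 CPM in the treated memory line, against 34.5 and 46.3 CPM in the untreated memory line. ILL6 and CYP94C1 passed whichever replicate was left out, with log2 fold changes of -2.34 ± 0.30 and -1.62 ± 0.23 (SE).

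Of 19 tested output genes 3 fell, with a median of -1.71. VSP2, a vegetative storage protein gene, had 19.0 and 25.3 CPM in the treated memory line, against 83.7 and 154 CPM in the untreated memory line (log2 fold change -2.41 ± 0.32 SE, edgeR adjusted p = 0.0055). FAMT, which methylates farnesoic acid, had 1.02 and 0.365 CPM in the treated memory line, against 9.83 and 14.8 CPM in the untreated memory line (log2 fold change -4.17 ± 0.64 SE, edgeR adjusted p = 0.011). AT2G34810, of the berberine bridge enzyme family, fell by 1.53 ± 0.25 (SE) on the log2 scale. None of these 3 was called without treated replicate 1, and FAMT passed only without untreated replicate 1. AT2G34810 missed the threshold without untreated replicate 2 as well (edgeR adjusted p = 0.0837). The NAC transcription factor genes NAC019 and NAC3 (AT3G15500), which belong to no list, fell as well. NAC019 had 0.765 and 0.730 CPM in the treated memory line, against 5.31 and 6.01 CPM in the untreated memory line, and NAC3 had 4.59 and 5.40 CPM in the treated memory line, against 18.22 and 26.1 CPM in the untreated memory line. NAC019 missed the threshold without either treated replicate (adjusted p = 0.0693 and 0.068), and NAC3 without each replicate in turn (adjusted p = 0.0543 to 0.348).

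**Figure D4:**
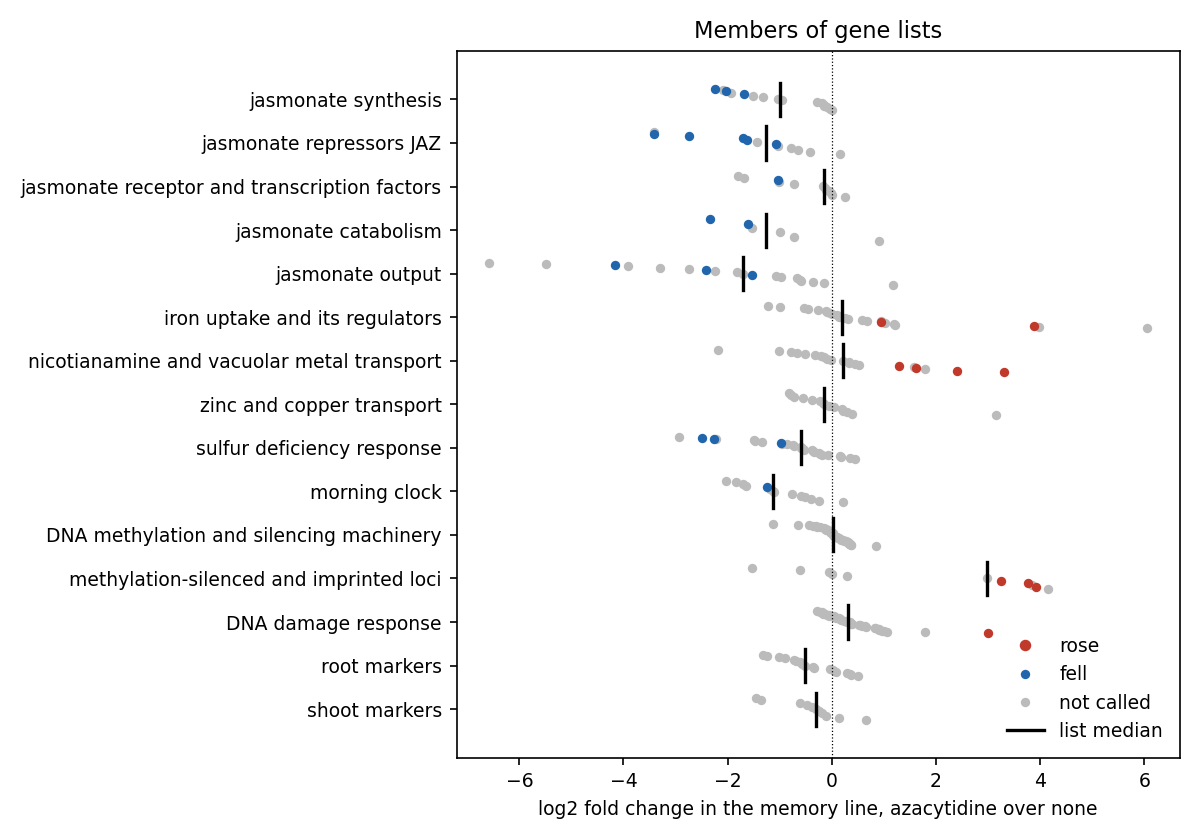
Log2 fold changes of the tested members of 15 gene lists in the memory line, azacytidine over none. Points are genes, red where they rose, blue where they fell and grey where they were not called, black bars are list medians and the dotted line is the median of all tested genes. The jasmonate lists lie to the left, while called genes of metal handling and silenced loci lie to the right.

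Upstream sequences of fallen genes are shown because MYC2 is known to bind the G-box, CACGTG. Of the 250 bases before each gene in TAIR10.1, read as 1 palindromic motif, 10 of the 58 fallen genes held CACGTG (17.2%), against 4 of the 105 risen genes (3.81%) and 6.90% of 22024 tested genes. Among the 14 fallen genes of the jasmonate lists 2 held it (14.3%), JAZ7 and JAZ2, so most of the matches belonged to other genes. Of the 51 uncalled genes of these lists 7 held it (13.7%). The evening element AAAATATCT, a motif of clock-controlled genes searched on both strands, stood before 6 fallen genes (10.3%), 0 risen genes and 2.38% of all tested genes. Printed are the matches of fallen genes that fall under the naming rule given below. Each line gives the gene's own strand, with the motif in capitals. The stretches lie at chr2:14572966-14573029 (JAZ7), chr1:28150477-28150542 (JAZ2), chr1:19698573-19698638 (NAC019), chr5:8338039-8338104 (PGL5), chr5:19183471-19183522 (NUDT8), chr3:16379321-16379385 (FAMT) and chr1:5977209-5977277 (LOX3), with JAZ2, NAC019 and PGL5 on the minus strand.
JAZ7: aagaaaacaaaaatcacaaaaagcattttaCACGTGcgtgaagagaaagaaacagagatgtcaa
JAZ2: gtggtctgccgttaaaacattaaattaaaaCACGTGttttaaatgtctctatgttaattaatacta
NAC019: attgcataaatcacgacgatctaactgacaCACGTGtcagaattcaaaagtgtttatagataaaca
PGL5: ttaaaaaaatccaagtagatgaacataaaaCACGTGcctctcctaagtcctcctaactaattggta
NUDT8: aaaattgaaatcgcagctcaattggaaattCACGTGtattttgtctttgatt
FAMT: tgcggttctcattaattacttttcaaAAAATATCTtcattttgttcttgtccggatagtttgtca
LOX3: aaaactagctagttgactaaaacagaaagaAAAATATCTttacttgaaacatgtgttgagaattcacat
A match is a description of these letters and not a binding site. PGL5, a 6-phosphogluconolactonase gene, fell by 1.93 ± 0.31 (SE) and NUDT8, a nudix hydrolase gene, by 2.12 ± 0.31 (SE) on the log2 scale. PGL5 missed the threshold without treated replicate 2 or untreated replicate 2 (adjusted p = 0.102 and 0.0777), and NUDT8 without treated replicate 2 (adjusted p = 0.0614).

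Some genes of sulfur metabolism and of glucosinolates, the sulfur-containing defence compounds of this plant family, fell, while most members of these lists were not called. Of 27 tested sulfur deficiency genes 3 fell, against 0.263% of all tested genes, with a median of -0.59. ATSDI1, named for its induction by sulfur deficiency, had 3.74 and 4.89 CPM in the treated memory line, against 16.6 and 32.3 CPM in the untreated memory line (log2 fold change -2.49 ± 0.40 SE, edgeR adjusted p = 0.017). APS3, an ATP sulfurylase that activates sulfate, had 28.9 and 18.8 CPM in the treated memory line, against 46.5 and 47.3 CPM in the untreated memory line (log2 fold change -0.98 ± 0.18 SE, edgeR adjusted p = 0.022). HMT3, a homocysteine methyltransferase that makes methionine, had 1.105 and 2.04 CPM in the treated memory line, against 10.5 and 4.70 CPM in the untreated memory line (log2 fold change -2.27 ± 0.43 SE, edgeR adjusted p = 0.029). The list had 0 called members without treated replicate 2, only APS3 without treated replicate 1 and only HMT3 without untreated replicate 2. The APS kinase genes APK and AKN2, which belong to no list and were named after their values were seen, supply the sulfate donor for glucosinolates. APK had 31.5 and 31.0 CPM in the treated memory line, against 55.6 and 52.0 CPM in the untreated memory line. AKN2 had 23.3 and 27.1 CPM in the treated memory line, against 59.3 and 61.8 CPM in the untreated memory line. Their log2 fold changes were -0.78 ± 0.13 and -1.26 ± 0.17 (SE). APK missed the threshold without either treated replicate (edgeR adjusted p = 0.0966 and 0.0834), and AKN2 passed whichever replicate was left out.

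Of 19 tested genes of indole glucosinolate synthesis 3 fell, against 0.263% of all tested genes, with a median of -0.45. They were MYB34, a transcriptional activator of the pathway, CYP79B2, which converts tryptophan to the aldoxime, and UGT74B1, the glucosyltransferase. MYB34 had 30.8 and 34.0 CPM in the treated memory line, against 47.9 and 65.5 CPM in the untreated memory line. CYP79B2 had 29.4 and 33.0 CPM in the treated memory line, against 50.7 and 58.4 CPM in the untreated memory line. Their log2 fold changes were -0.81 ± 0.16, -0.80 ± 0.17 and, for UGT74B1, -0.68 ± 0.14 (SE). None of the 3 was called when treated replicate 1, treated replicate 2 or untreated replicate 2 was left out, and UGT74B1 was not called without untreated replicate 1 either. Of 20 tested genes of the aliphatic branch 1 fell, against 0.263% of all tested genes, and the list median was -0.20. It was IPMI1, an isomerase of the branch's chain elongation, which fell by 1.06 ± 0.21 (SE). IPMI1 missed the threshold without each replicate in turn, with adjusted p of 0.0821 to 0.218.

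Of 14 tested morning genes of the circadian clock 1 fell, against 0.263% of all tested genes, with a median of -1.12. LNK1, a transcriptional coactivator of the clock, had 11.1 and 9.34 CPM in the treated memory line, against 21.7 and 26.7 CPM in the untreated memory line (log2 fold change -1.25 ± 0.25 SE, edgeR adjusted p = 0.035). It passed only without untreated replicate 1, and its adjusted p was 0.143 to 0.235 without each of the others. The abundant COR27, PRR7 and RVE2 had log2 fold changes of -0.24, -1.11 and 0.22. Of 13 tested evening genes (median -0.57) edgeR called 0 and DESeq2 called 3. At an unadjusted p under 0.05 there were 7 of the 13, against 1979 of 22031 tested genes. Without untreated replicate 1 edgeR called 4 of them as fallen. LEA3, a late embryogenesis abundant gene, had 1.02 and 1.31 CPM in the treated memory line, against 3.94 and 16.5 CPM in the untreated memory line (log2 fold change -3.10 ± 0.58 SE, edgeR adjusted p = 0.029), and it passed only without untreated replicate 1 (adjusted p = 0.167 to 0.254 without each of the others). Without untreated replicate 2 the log2 fold change of LEA3 was -1.74. Seed and embryo markers were also highest in that replicate. The 11 markers summed to 7 and 21 counts in the treated memory line, against 26 and 465 counts in the untreated memory line, and 9 of them were highest in untreated replicate 2. The seed storage protein gene CRU1 had 0 and 4 counts in the treated memory line, against 13 and 248 counts in the untreated memory line, and CRU3 had 0 and 0 counts in the treated memory line, against 6 and 147 counts in the untreated memory line. Of the 11 markers 2 passed the filter, edgeR called 0 and DESeq2 called 0, and 1 had an unadjusted p under 0.05. Their part in the other results was not tested.

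Genes of DNA damage and division were mostly uncalled. Of 38 tested DNA damage genes 1 rose, against 0.477% of all tested genes, with a median of 0.31. At an unadjusted p under 0.05 there were 13 of these 38, against 1979 of 22031 tested genes, and DESeq2 called 3. SMR7, an inhibitor of cyclin-dependent kinases that responds to DNA damage, had 6.38 and 5.18 CPM in the treated memory line, against 1.08 and 0.282 CPM in the untreated memory line (log2 fold change 3.00 ± 0.51 SE, edgeR adjusted p = 0.012). It missed the threshold without treated replicate 1 or untreated replicate 2 (adjusted p = 0.0944 and 0.0831), and without untreated replicate 1 the list had 4 risen genes. TSO2, RNR1 and RAD50 had log2 fold changes of 0.54, 0.34 and 0.06. edgeR and DESeq2 called none of 24 replication genes (median 0.27) and none of 25 mitosis genes (median 0.20), with 1 gene of each list at an unadjusted p under 0.05. Of 25 tested genes of salicylate and immunity 1 rose, against 0.477% of all tested genes, with a median of 0.41. It was ALD1, an aminotransferase of pipecolate synthesis, with 2.29 and 1.46 CPM in the treated memory line, against 0.215 and 0.188 CPM in the untreated memory line (log2 fold change 3.14 ± 0.55 SE, edgeR adjusted p = 0.016). ALD1 passed only without treated replicate 2 (adjusted p = 0.0646 to 0.121 without each of the others). Of all 38 lists, 22 had 0 called members in edgeR. Summed over these lists, 76 of 463 members had an unadjusted p under 0.05 and DESeq2 called 19. For the 20 of these with over 2 tested members the median log2 fold changes lay between -0.57 and 0.49. They held abscisic acid, ethylene, auxin, wound and cold factors, heat shock, mitochondrial stress, dark and sugar starvation, light harvesting, flavonoids, phosphate, Casparian strip and flowering time.

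The azacytidine response of wild type shares no sample with that of the memory line, and was set beside it. Both were tested in the same fit, with a shared estimate of spread and a shared filter on low counts. The near-silent genes passed that filter mostly through treated samples, which include those of wild type. The overlap of the called genes is therefore not that of independent tests. In wild type, 1408 genes changed (6.39%), of which 665 rose (3.02%) and 743 fell (3.37%), with 3 replicates in each group. Of the 105 genes that rose in the memory line, 78 rose in wild type (74.3% of the memory-line list and 11.7% of the wild-type list). Of the 58 genes that fell, 43 fell in wild type (74.1% of the memory-line list and 5.79% of the wild-type list). Of the 76 near-silent genes 68 rose in wild type, and of the 29 genes already expressed 10 did. SDC averaged 8.64 CPM in the treated and 0.383 CPM in the untreated wild type, and JAZ9 averaged 25.2 CPM in the treated and 146 CPM in the untreated wild type. Only scpl31 rose in the memory line and fell in wild type.

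**Figure D5:**
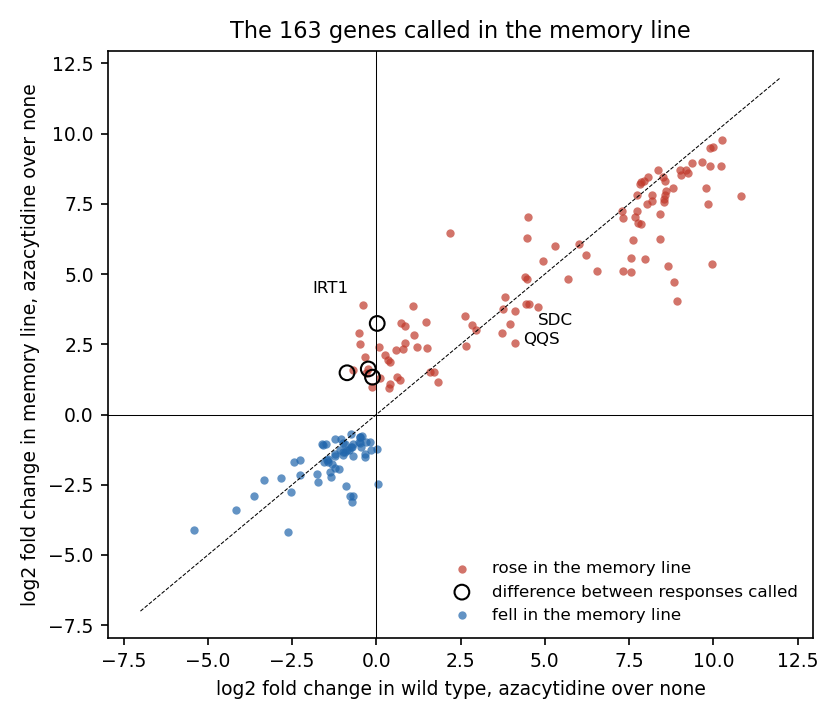
Log2 fold changes, azacytidine over none, of the 163 genes called in the memory line, in wild type (x) and in the memory line (y). The dashed line marks equal values, and the 4 circled genes are those whose responses differed. Most genes lie in the upper right or the lower left, while IRT1 and the circled genes lie near or left of 0 in wild type. The highest values belong to genes with few or no untreated counts and depend on the prior count.

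A gene called in 1 genotype alone is not shown to differ, and the difference between the responses was tested itself. It was called for 4 genes (0.0182% of 22031), all with a higher log2 fold change in the memory line. There were 1891 genes at an unadjusted p under 0.05, and 93 genes by DESeq2. The gene scpl31, of a serine carboxypeptidase-like protein, had 28.9 and 24.1 CPM in the treated memory line, against 8.39 and 10.6 CPM in the untreated memory line. In wild type it had 25.1, 25.03 and 22.4 CPM with the drug, against 40.9, 50.7 and 40.9 CPM without it, and the difference between the responses was 2.35 on the log2 scale (edgeR adjusted p = 0.0015). The other 3 genes carry no symbol and were named after their values were seen. AT1G52120, of the mannose-binding lectin family, had 7.99 and 5.91 CPM in the treated memory line, against 0.932 and 0.470 CPM in the untreated memory line. It had 8.29, 7.90 and 8.95 CPM in the treated wild type, against 10.5, 7.64 and 6.62 CPM in the untreated wild type. AT3G62040, a haloacid dehalogenase-like hydrolase gene, had 105 and 63.5 CPM in the treated memory line, against 24.7 and 30.2 CPM in the untreated memory line. It averaged 71.1 CPM in the treated and 83.9 CPM in the untreated wild type. AT1G74770, annotated as a zinc ion binding protein, had 35.2 and 33.8 CPM in the treated memory line, against 13.3 and 14.2 CPM in the untreated memory line. It averaged 36.7 CPM in the treated and 39.8 CPM in the untreated wild type. In all 4 the untreated memory line lay below each other replicate. The count was 48 without untreated wild-type replicate 3 and 11 without treated memory-line replicate 2. It was 7 and 8 without untreated memory-line replicate 1 or 2, 2 without treated wild-type replicate 3, and 1 without treated memory-line replicate 1, untreated wild-type replicate 1 or 2, or treated wild-type replicate 2.

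The metal genes of the plot of levels per replicate had these values in wild type. IRT1 had 103, 50.5 and 31.6 CPM in the treated wild type, against 90.8, 72.2 and 83.2 CPM in the untreated wild type. NAS2 had 47.7, 33.9 and 35.2 CPM in the treated wild type, against 13.3, 10.6 and 18.3 CPM in the untreated wild type. MTPA2 averaged 14.9 CPM in the treated and 17.7 CPM in the untreated wild type. The difference between the responses was 4.29 for IRT1, 1.84 for NAS2 and 1.88 for MTPA2 on the log2 scale and did not pass the test (edgeR adjusted p = 0.19, 0.18 and 0.086).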

How the data were processed

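RNA was sequenced from TruSeq v2 libraries, which do not mark strand, with reads of 100 bases. The deposited files hold read counts per gene for each library as whole numbers, made by the authors. The submitters' processing notes name TAIR10 and DESeq2, with no role given, and the aligner and counter were not given in the sources used. Libraries of the same RNA were summed to 10 biological replicates, and 5 summary rows were left out. Reads assigned to no gene made up 48.3% to 49.3% of uniquely aligned reads.

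Genes were filtered by edgeR's filterByExpr (minimum count 10, minimum total 15), which left 22031 of 33977. They were fitted over all 10 replicates with TMM scaling and edgeR's quasi-likelihood test (edgeR 4.0.16, R 4.3.3), with Benjamini-Hochberg adjustment over all tested genes and a threshold of 0.05. All adjusted p-values, those with a replicate left out included, come from this test. The fit had 6 residual degrees of freedom and was tested on simulated data. Coordinates and sequences are from the RefSeq assembly TAIR10.1, which matched 32548 gene IDs. Alternatives were DESeq2 1.42.0, its size factors, other filters, the memory line alone, the first technical library alone, a replicate block and leaving out each replicate.

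Members and gene lists were chosen with earlier results of these data known. Genes named were the 14 risen and 14 fallen genes with the largest changes among called genes with a symbol, a mean of at least 3 CPM over the 4 memory-line replicates and no overlap between groups, called list members, up to 3 abundant uncalled members a list, and SDC, QQS, FWA, MRU1, MSH1, MET1 and scpl31. Depth limits the genes near 0 counts. Standard errors (SE) were the absolute log2 fold change divided by the square root of the F statistic of the quasi-likelihood test. They are approximate and include the spread between replicates, while floors of 3 counts cover counting error only.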

Additional observations from a re-analysis of the deposited data

Results flagged for a closer look

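The difference between the azacytidine responses of memory line and wild type passed edgeR's test for 4 genes, with a log2 value of 2.35 for scpl31, 3.22 for AT1G52120, 1.44 for AT1G74770 and 1.86 for AT3G62040. In each, the untreated memory line had the lowest levels of the 4 groups, and all 4 kept their call in the memory line whichever of its replicates was left out.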

How the results depend on the processing

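No called gene changed sign in an alternative that tested it, and 45 of the 105 risen and 9 of the 58 fallen genes were called in each one that did. These counts do not cover the fits without a wild-type replicate or the fit with crossed replicate numbers given below. The stricter filter tested 132 of the 163, the first technical library alone 160 and the memory line alone 161. DESeq2 called 384 genes (185 higher, 199 lower) and 93 genes for the difference between the responses. The memory-line samples alone gave 95 (64 higher, 31 lower), and 83 of the 161 called genes tested there kept their call. The other calls therefore rest on a spread estimated with wild type included. Without each memory-line or wild-type replicate in turn, 91 to 283 genes were called, 62 to 116 of them higher and 22 to 167 lower, and the difference between the responses gave 1 to 48. It gave 7 with no filter on low counts. The replicate numbers of the memory line share no stated source, and same-numbered deviations correlated at -0.12. With a replicate block, 179 genes were called and 11 for the difference. With crossed numbers, chosen after seeing the data, these counts were 167 and 7. The cause of these changes was not tested. With 2 replicates a group and genes near 0 counts, depth and replicate number limit the smaller changes.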

Other observations

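Some called genes lie beside each other. Within 10 kb, 17 pairs held 28 of the 163 called genes, and in 16 pairs both members changed in the same direction. In 7 pairs the genes overlap on opposite strands, so their reads cannot be told apart. Of the 10 pairs that lie apart, both members rose in 5 and both fell in 4. The phloem lectin genes PP2-A8 and PP2-A6, 1832 bases apart, both rose. AKN2, an APS kinase gene, and CYP79B2 of indole glucosinolate synthesis, 3437 bases apart, both fell. RPP4, a resistance gene, had 64.4 and 59.6 CPM in the treated memory line, against 123 and 152 CPM in the untreated memory line, and fell with its neighbour AT4G16857, 4553 bases away. RPP4 passed only without untreated replicate 1 and AT4G16857 only without untreated replicate 2. The neighbours AT5G26260 and AT5G26270 changed in opposite directions, the one falling and the other rising. The genes of this paragraph were picked with their values in view.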
